A study of Homo sapiens with 2 samples.

Results

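The 10 genes examined here encode chemokines that draw myeloid cells and lymphocytes to sites of inflammation: CXCL8, CXCL1, CXCL2, CXCL3, CXCL5, CXCL10, CCL2, CCL3, CCL4 and CCL5. They were picked with earlier results of these data known and looked up in the authors' list of C/EBPβ peaks paired with transcripts. In it, 6 of the 10 appear, beside 26.5% of the 19392 protein-coding genes considered in all. The series holds 1 library of HL-60 cells overexpressing C/EBPβ, immunoprecipitated with an antibody to C/EBPβ (sc-150x), and 1 input library of the same overexpressing cells made with no antibody. HL-60 is a human leukaemia line whose cells are labelled as myeloblasts, and C/EBPβ is a DNA-binding factor of the leucine zipper class that acts in myeloid cells. How overexpression was achieved was not stated in the labels, cells without it were not analysed here, and only the immunoprecipitated library has a file. With 1 library there is no replicate and no test, every value below is a description, and since a peak list holds no expression values, the cell type label could not be checked. Read depth is unknown.

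Chemokines are small secreted proteins that act through G protein-coupled receptors. The CXC and CC families are named for the spacing of their leading cysteines. CXC members with the Glu-Leu-Arg (ELR) motif, such as CXCL8, mainly recruit neutrophils, whereas CC members such as CCL2 mainly recruit monocytes and lymphocytes. Many are low at rest and are induced by NF-κB together with AP-1 and C/EBP factors. C/EBPβ was first described as a nuclear factor for IL6 expression, and the CXCL8 promoter is a textbook case of a C/EBP site beside an NF-κB site.

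The 6 listed genes carried 7 peaks in 9 peak and transcript pairs, all on chromosome 4 or 17 of hg19, and none of the 7 was paired with any other gene. CXCL8 had 2 peaks, while CXCL1, CCL2, CCL3, CCL4 and CCL5 had 1 each. CXCL2, CXCL3, CXCL5 and CXCL10 had none within 3000 bases of a start, the limit of the list. The share of 60.0% stood beside 26.5% for all protein-coding genes, of which 5133 were listed. By family, 4 of the 4 CC genes and 2 of the 5 ELR-type CXC genes were listed, and the interferon-induced CXCL10 was not. A peak middle within 1000 bases of a start was found at 4 of the 10 genes (CXCL8, CCL3, CCL4 and CCL5), beside 20.9% of all protein-coding genes. With peaks wider than the median of the list, 2 of the 10 were listed (CXCL8 and CXCL1), beside 15.4%. When a peak counted for the nearest start alone, or with genes named by the deposited symbol alone, 6 were listed, beside 23.4% and 24.6% of all protein-coding genes.

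**Figure D1:**
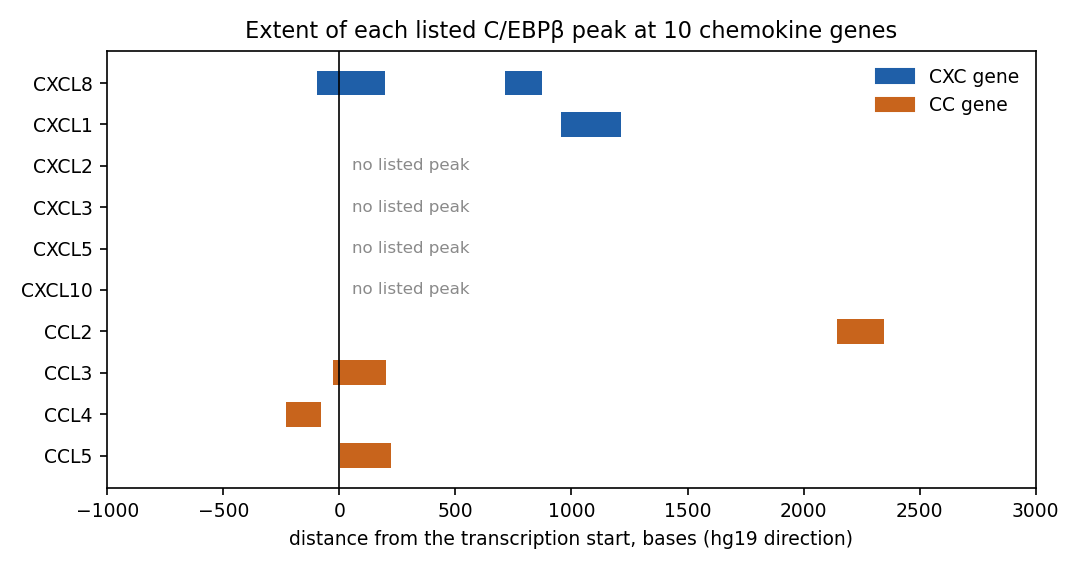
Each bar spans 1 listed peak, from its lower to its higher hg19 position, as bases from the transcription start (x axis) of the gene named on the y axis; blue marks CXC genes and orange CC genes. The bars at CXCL8 and CCL3 cross the start, those at CCL5 and CCL4 lie beside it, and those at CXCL1 and CCL2 lie 956 and 2143 bases or more above it.

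CXCL8 (interleukin-8, the main neutrophil attractant in humans) was the only one of the 10 with more than 1 listed peak. The nearer peak, at chr4:74606127-74606420 (hg19), was 293 bases wide and had its middle 51 bases above the start of transcript NM_000584. It covered that start, running from −95 to 198 bases around it. The other peak, at chr4:74606936-74607094, was 158 bases wide, with its middle 793 bases above the start and 516 bases of unlisted sequence between the peaks. The nearer peak was the widest of the 7, wider than 69.9% of all 7029 listed peaks, while the other was wider than 14.6% of them. The deposited score, which falls with distance from the start and carries no peak height, was 0.5667 for the nearer peak and 0.2107 for the other. Across the list, 30.2% of listed protein-coding genes had at least 2 peaks.

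The CXCL8 promoter is shown because it holds a C/EBP-type sequence, TTGCAAA, separated by 4 bases from an NF-κB-type sequence, GGAATTTCC, both in capitals. The letters are the 250 bases before the RefSeq start, chr4:73740319-73740568 of GRCh38.p14, plus strand.
CXCL8: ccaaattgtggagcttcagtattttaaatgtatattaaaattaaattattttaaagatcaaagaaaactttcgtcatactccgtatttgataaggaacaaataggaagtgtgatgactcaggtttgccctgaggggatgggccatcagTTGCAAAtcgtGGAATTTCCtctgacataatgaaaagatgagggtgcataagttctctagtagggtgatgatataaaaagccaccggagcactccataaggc
Counted back from that start, TTGCAAA lay at −102 to −96 and GGAATTTCC at −91 to −83. A copy of the AP-1 sequence TGACTCA lay at −137 to −131 and TATAAA at −31 to −26. TTGCAAA, on either strand, occurred in 2.98% of the 35116 promoter windows of the table and in 1 of the 7 windows available for these genes. Since the CXCL8 site is a textbook case, its match was known beforehand, and this share is a description only. Starts may differ between the hg19 transcripts of the list and the GRCh38 table, so these positions were not set against the peak.

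CXCL1 (GROα), an ELR-type attractant of neutrophils, had 1 peak at chr4:74736064-74736321 (hg19), 257 bases wide. Its middle lay 1084 bases above the start, and the nearest edge of the peak lay 956 bases away. The peak was wider than 59.9% of all listed peaks and was paired with a coding and a noncoding transcript, NM_001511 and NR_046035, that share the start. CXCL2 and CXCL3, which encode the closely related GROβ and GROγ, had no listed peak. The same was true of CXCL5, another ELR-type chemokine. No listed peak at these 3 genes therefore had its middle within 3000 bases of an annotated start, and binding farther away could not be seen in this list.

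The promoters of CXCL1, CXCL2 and CXCL3 are shown to compare the listed gene with the 2 unlisted relatives. The nearest edge of the CXCL1 peak lay 956 bases from its start, so the 250 bases shown do not reach that peak. They come from chr4:73869143-73869392 (plus strand), chr4:74099196-74099445 (minus strand) and chr4:74038690-74038939 (minus strand) of GRCh38.p14, and capitals mark NF-κB-type and C/EBP-type matches.
CXCL1: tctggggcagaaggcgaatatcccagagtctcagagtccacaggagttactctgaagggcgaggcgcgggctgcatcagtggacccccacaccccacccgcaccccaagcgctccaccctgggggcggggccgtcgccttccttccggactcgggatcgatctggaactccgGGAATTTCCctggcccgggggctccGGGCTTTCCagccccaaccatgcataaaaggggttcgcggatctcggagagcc
CXCL2: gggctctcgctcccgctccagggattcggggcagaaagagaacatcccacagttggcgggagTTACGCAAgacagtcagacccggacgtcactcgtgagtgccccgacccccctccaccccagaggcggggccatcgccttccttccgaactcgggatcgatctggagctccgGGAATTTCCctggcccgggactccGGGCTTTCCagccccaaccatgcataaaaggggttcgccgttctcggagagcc
CXCL3: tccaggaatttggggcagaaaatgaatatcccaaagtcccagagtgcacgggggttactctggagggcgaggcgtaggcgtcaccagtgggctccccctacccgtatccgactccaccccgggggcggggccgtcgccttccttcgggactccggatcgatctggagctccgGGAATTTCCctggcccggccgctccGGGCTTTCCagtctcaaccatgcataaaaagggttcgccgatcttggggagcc
All 3 held GGAATTTCC between −78 and −69 and GGGCTTTCC at −53 to −45. The 250 bases of CXCL1 were 81.4% identical to those of CXCL3 and 67.9% identical to those of CXCL2, and CXCL2 and CXCL3 were 73.3% identical to each other. CXCL2 alone of the 3 held a match to the C/EBP pattern TTGCNNAA. The match was read on the other strand as TTACGCAA at −188 to −181, although no peak was listed there. This identity covers the 250 bases only, which do not reach the CXCL1 peak, and how well short reads could be placed was not examined. How the authors treated reads with several positions was not stated in the labels, and its part in which of the 3 genes was listed was not tested.

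CXCL10 (IP-10), an interferon-induced chemokine that attracts activated T cells, had no listed peak. Its direct neighbour CXCL11, an interferon-induced ligand of the same receptor, had 1 at chr4:76956341-76956593 (hg19), 252 bases wide and centred 883 bases below its start. The CXCL10 promoter, chr4:76023498-76023747 of GRCh38.p14, minus strand, is shown as a promoter with NF-κB-type matches (capitals) but no match to any of the 4 C/EBP patterns.
CXCL10: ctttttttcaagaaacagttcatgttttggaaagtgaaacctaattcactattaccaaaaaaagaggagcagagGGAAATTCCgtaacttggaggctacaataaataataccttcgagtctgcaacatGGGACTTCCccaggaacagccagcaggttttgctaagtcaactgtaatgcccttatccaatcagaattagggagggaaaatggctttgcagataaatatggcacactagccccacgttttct
GGAAATTCC lay at −176 to −168, GGGACTTCC at −122 to −114, and the interferon response type sequence GAAAGTGAA at −221 to −213.

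Among the CC genes, the peaks at CCL3, CCL5 and CCL4 lay close to the start. CCL3 (MIP-1α), made by activated monocytes and macrophages, had a peak at chr17:34417478-34417707 (hg19), 229 bases wide. It covered the start, running from −28 to 201 bases around it, with its middle at 86 bases. CCL5 (RANTES), which attracts T cells and monocytes, had a peak at chr17:34207381-34207601, 220 bases wide, that began 4 bases above the start and had its middle at 114 bases. It was paired with 2 transcripts that share this start, NM_001278736 and NM_002985. CCL4 (MIP-1β), a close relative of CCL3, had a peak at chr17:34430988-34431141, 153 bases wide, that ended 78 bases below the start and had its middle at −155 bases. The deposited scores were 0.5408 for CCL3, 0.521 for CCL5 and 0.4933 for CCL4.

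CCL2 (MCP-1), the main monocyte attractant, had the most distant peak of the 7. It lay at chr17:32584438-32584640 (hg19), was 202 bases wide and had its middle 2244 bases above the start, with a score of 0.0304. Of listed protein-coding genes, 93.9% had a nearer peak, and 7.91% had their nearest peak more than 2000 bases away. The list gives no strand and no gene ends, so whether the CCL2, CCL4 and CCL5 peaks lay before, within or past the genes was not determined.

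The CCL3 promoter is shown because its peak crosses the start. It spans chr17:36090144-36090393 of GRCh38.p14, minus strand, before the outermost of 3 starts in the table, and capitals mark a C/EBP-type match.
CCL3: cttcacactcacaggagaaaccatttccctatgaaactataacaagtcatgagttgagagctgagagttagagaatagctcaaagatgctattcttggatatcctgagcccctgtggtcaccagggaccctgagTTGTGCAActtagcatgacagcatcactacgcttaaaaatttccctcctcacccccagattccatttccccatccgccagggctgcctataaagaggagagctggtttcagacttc
This match, TTGTGCAA at −116 to −109, is the C/EBP pattern TTGCNNAA read on the other strand. TATAAA lay at −29 to −24. These positions run in gene direction, whereas the peak bounds of −28 to 201 run in hg19 direction. If CCL3 has the minus strand in hg19 as in GRCh38, which was not checked, positions above the start lie before the gene, and most of the peak did. Unlike the 6 CXC windows, the CCL3 window held no match to either NF-κB pattern.

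All 10 genes were looked up in the RefSeq promoter table, and 7 had a window there: CXCL8, CXCL1, CXCL2, CXCL3, CXCL5, CXCL10 and CCL3. Motifs were searched on both strands of the 250 bases before each start. The C/EBP pattern TTGCNNAA matched at CXCL2 and CCL3 (2 of 7, beside 9.05% of all windows). The patterns TTNNGCAAT and TGATGCAA, the second of them a joint C/EBP and ATF sequence, matched at none (2.04% and 0.772% of all windows). TTNNGCAAT is the other strand of TTGCNNAA with 1 base added, and a TTGCAAA match can also overlap TTGCNNAA. No match at these genes did so, and no NF-κB matches overlapped each other. The first NF-κB pattern, GGANNTTCC, matched at all 6 CXC genes and not at CCL3 (6 of 7, beside 3.84%). The other, GGGNNTTCC, matched at CXCL1, CXCL2, CXCL3 and CXCL10 (4 of 7, beside 5.78%). Among protein-coding windows alone these shares were 3.82% and 6.57%. CXCL1, CXCL2 and CXCL3 have similar promoters, 67.9% to 81.4% identical, so their matches are not separate cases. Induction of many chemokines by NF-κB was known beforehand, so the NF-κB counts are a description only. The AP-1 pattern TGANTCA matched at CXCL8 (1 of 7, beside 6.57%), and the interferon response type pattern GAAANNGAA at CXCL2, CXCL3, CXCL10 and CCL3 (4 of 7, beside 6.88%). TATAAA matched at CXCL8 and CCL3 (2 of 7, beside 10.7%). Of the 3 listed genes with a window, CXCL8 and CCL3 held a C/EBP-type match and CXCL1 did not. Of the 4 unlisted genes only CXCL2 did. The CXCL1 window does not reach that gene's peak. The share of all listed genes with such a match was not computed, so this split is a description only. A match is a run of letters and not a shown binding site, and the first NF-κB pattern occurred in listed and unlisted CXC genes.

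**Figure D2:**
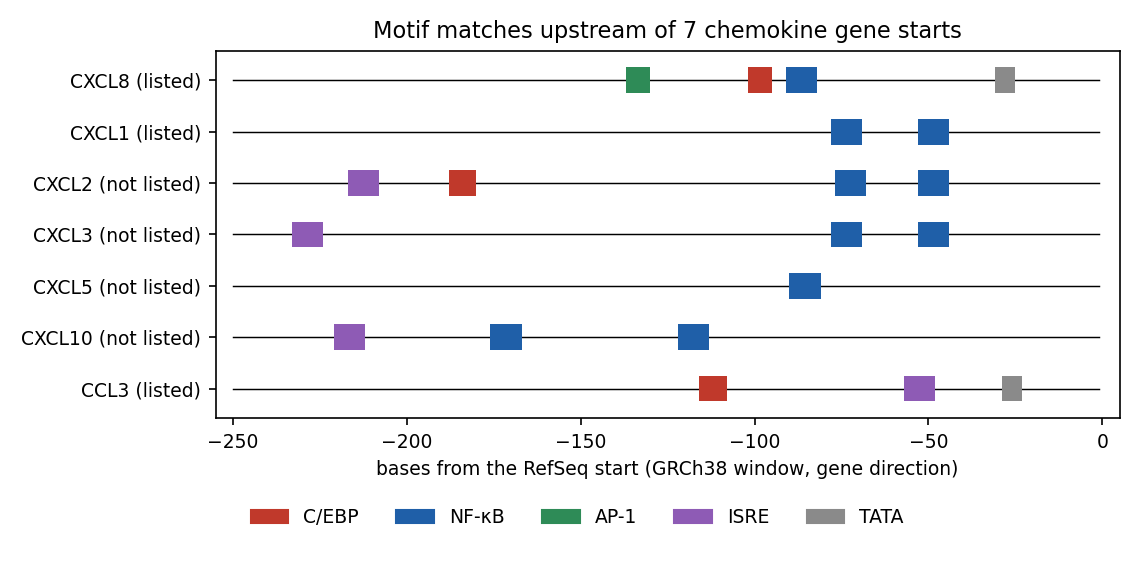
Coloured bars mark motif matches along the 250 bases before the RefSeq start (x axis, bases from the start in gene direction) of 7 chemokine genes (y axis, listed or not listed beside the name). A blue NF-κB-type bar is present at all 6 CXC genes, and red C/EBP-type bars are present at CXCL8, CXCL2 and CCL3.

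Set among all genes with a listed peak, the 6 genes fell into nearer and farther ones. Those with the nearer peaks were CXCL8 at 51, CCL3 at 86, CCL5 at 114 and CCL4 at 155 bases, and CXCL1 at 1084 and CCL2 at 2244 bases were far from them. Their median was 134.5 bases, beside 265 bases for all listed protein-coding genes. Within 200 bases, 4 of the 6 had a peak, beside 41.8% of those genes. Within 1000 bases the count was also 4 of the 6, beside 79.0% of those genes, so the comparison depends on the distance chosen. The nearest peak covered the start in 2 of the 6, CXCL8 and CCL3, beside 31.1%. Widths of the 7 peaks ranged from 153 to 293 bases with a median of 220, beside a median of 229 for all peaks, and 2 of the 7 were wider than that median. The narrowest width in the list, 146 bases, was shared by 564 peaks, and none of the 7 was at that limit.

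**Figure D3:**
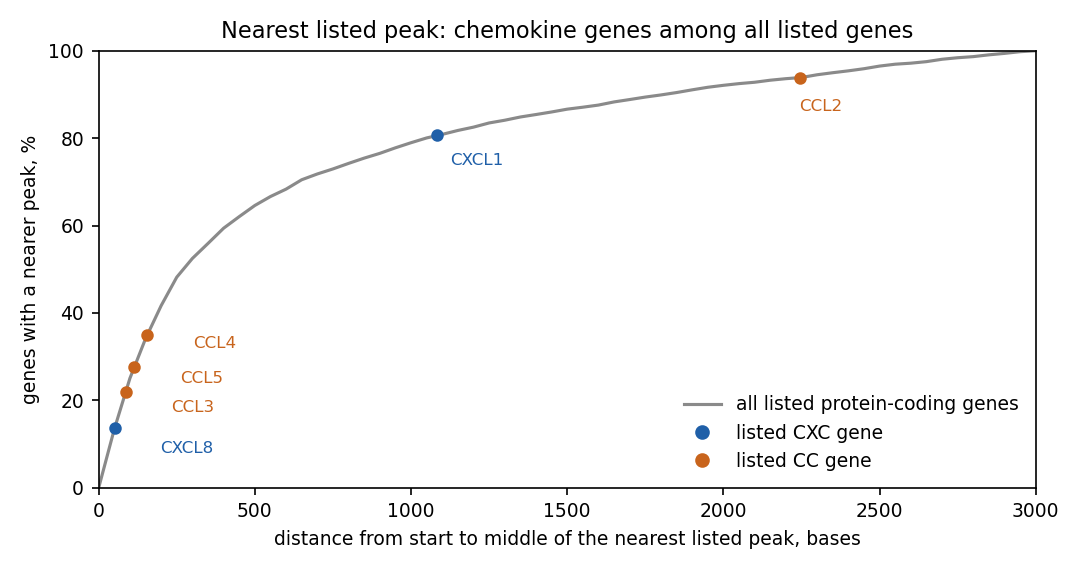
The grey line gives the percentage of listed protein-coding genes whose nearest peak is closer to the start than the distance on the x axis (bases), and points mark the 6 listed chemokine genes. CXCL8, CCL3, CCL5 and CCL4 lie at 13.6% to 35.0%, CXCL1 at 80.6% and CCL2 at 93.9%.

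The CXC and CC genes lie in gene clusters, and the listed peaks were spread unevenly along them. On chromosome 4, the starts of CXCL8 and CXCL1 lay 128.9 kb apart in hg19, and in RefSeq gene order the chemokine genes CXCL6 and PF4V1 between them were not listed. The next listed peak, at chr4:74922345-74922800, was 455 bases wide and belonged to the pseudogene PPBPP2, which lies between CXCL3 and CXCL2. Past it, no peak was listed for 1675.5 kb up to G3BP2, a stress granule protein gene, a stretch that holds CXCL2 and 10 further protein-coding genes such as AREG and EREG, which encode growth factors. Farther along, CXCL10 fell between the listed SDAD1, a ribosome assembly gene with a peak 26 bases from its start, and CXCL11, and the related CXCL9 in the same stretch was not listed either. The nearest listed gene below CXCL8 was COX18, a mitochondrial insertase gene, 670.4 kb from it. On the other chromosome, the CCL3 and CCL4 starts were 13.7 kb apart with no protein-coding gene between them. The 7 protein-coding genes between CCL5 and CCL3, among them the chemokine genes CCL16, CCL14, CCL15, CCL23 and CCL18, had no listed peak.

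The nearest listed protein-coding gene above CCL4 was GGNBP2, with CCL3L3 and CCL4L2, near-identical copies of CCL3 and CCL4, among the 10 unlisted genes between. Reads from such copies can be hard to tell apart, and the part of this in the CCL3 and CCL4 peaks was not tested. Around CCL2, the neighbouring chemokine genes CCL7, CCL11, CCL8, CCL13 and CCL1 were not listed. The nearest listed protein-coding genes on either side of CCL2 were C17orf75 and LIG3, a DNA ligase gene. The nearest listed peak below that of CCL5 was at AP2B1, an endocytic adaptor gene, 292.9 kb away.

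**Figure D4:**
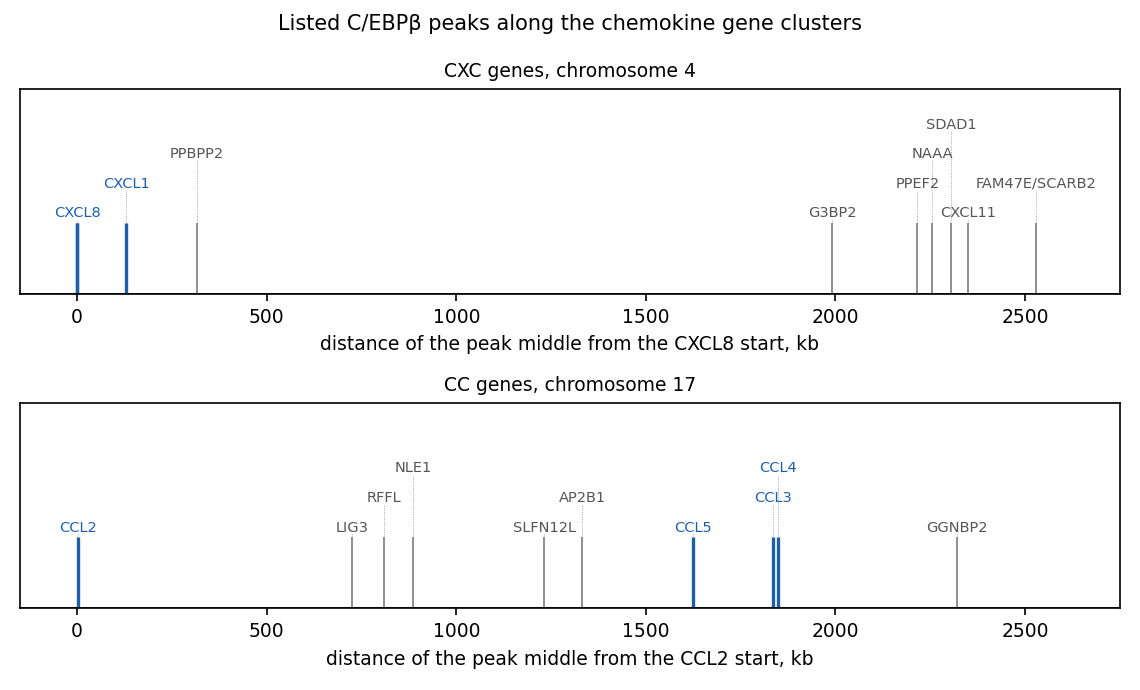
Vertical lines mark listed peaks by the distance of their middle (x axis, kb) from the CXCL8 start on chromosome 4 (top) and the CCL2 start on chromosome 17 (bottom), labelled by gene; blue marks the 10 chemokine genes and grey all others. The 2 CXCL8 peaks are too close to separate at this scale, CXCL1 lies at 129.97 kb, and CCL5, CCL3 and CCL4 lie at 1625.2, 1835.3 and 1848.77 kb.

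The peak names carry running numbers, and numbers missing from the list may belong to peaks farther than 3000 bases from any start, if numbering was complete. The 2 CXCL8 peaks had consecutive numbers, and so did the CCL3 and CCL4 peaks; 47.4% of all listed peaks were followed by a listed number. Missing numbers came to 3 between CXCL8 and CXCL1, 2 between CXCL1 and PPBPP2, 13 between PPBPP2 and G3BP2, 1 between SDAD1 and CXCL11, and 5 between CCL5 and CCL3. The CCL5 peak directly followed that of AP2B1 in number.

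The rest of the chemokine family was looked up in the same way. Of the 38 other chemokine ligand genes, 4 had a listed peak (10.5%, beside 26.5% of all protein-coding genes): CXCL11, CXCL17, CCL20 and XCL2. Over all ligand genes together, 10 of 48 were listed (20.8%), below that 26.5%. Among the 10, 4 of 4 CC and 2 of 6 CXC genes were listed; among the other ligands, the counts were 1 of 24 CC genes, 2 of 11 CXC genes and 1 of 3 XC and CX3C genes. The distances were −883 bases at CXCL11, −1944 at the mucosal chemokine CXCL17, 723 at CCL20, which attracts CCR6-bearing cells, and 2273 at XCL2. None was as near as the nearest peaks at CXCL8, CCL3, CCL4 and CCL5. The peaks at CCL20 and CXCL11 were nearer than those at CXCL1 (1084 bases) and CCL2 (2244 bases). The CXCL17 peak was nearer than that of CCL2 only, and the XCL2 peak was farther than all of them. CXCL6 and PPBP, the remaining ELR-type genes, were not listed, which makes 2 of 7 for that class. The 10 genes were picked as myeloid chemokines with earlier results of these data known, so the difference between them and the other ligands is a description only.

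**Figure D5:**
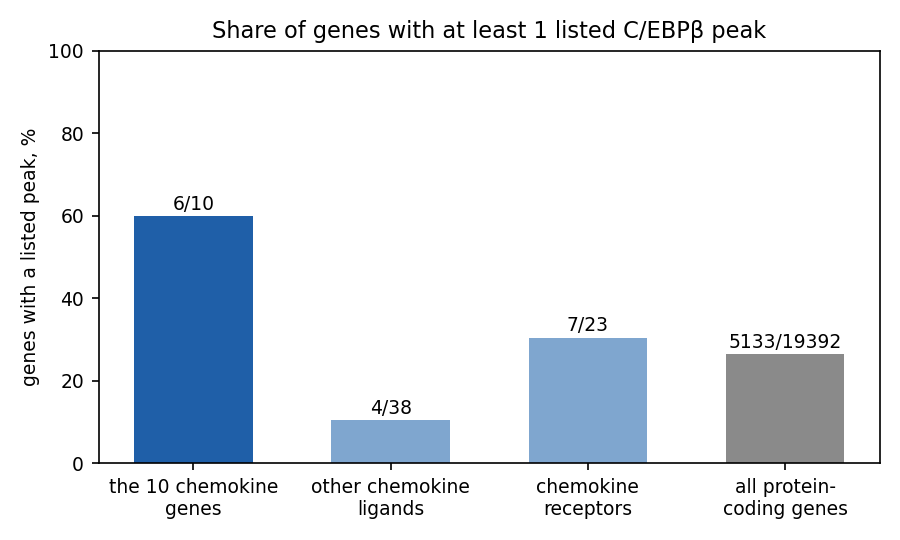
Bars give the percentage of genes with at least 1 listed peak (y axis), with the listed and total number of genes above each, for the 10 chemokine genes, other chemokine ligands, chemokine receptors and all protein-coding genes. The bars stand at 60.0%, 10.5%, 30.4% and 26.5%.

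Of 23 chemokine receptor genes, 7 were listed (30.4%), close to the 26.5% of all protein-coding genes. With peak middles within 1000 bases, 3 of the 23 were listed (13.0%), beside 20.9% of all protein-coding genes. Among the 7 were CXCR3, CXCR4, CXCR5, CCR2, CCR7 and CCR10. The receptors of CXCL8 and CXCL1, CXCR1 and CXCR2, were not listed. CCL2 and its receptor CCR2 were both listed, the CCR2 peak being centred 147 bases from the start. CCR1, a receptor of CCL3 and CCL5, had none. CXCL10 was the reverse case, an unlisted ligand whose receptor CXCR3 had a peak centred exactly on its start (0 bases). Nearest peaks at further listed receptors lay at −1004 bases for CXCR5, −2397 for CXCR4, 98 for CCR7 and −2835 for CCR10, whose peak was shared with PLEKHH3.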

How the data were processed

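Chromatin immunoprecipitation with sequencing was done in HL-60 cells overexpressing C/EBPβ, with 1 input library that has no file here. The submitters' processing notes name BWA 0.7.10, SAMtools and MACS2 2.1.1 with hg19, without roles or settings. The authors deposited 17637 pairs of a peak and a transcript, with peak bounds, a distance in bases and a score. The deposited score equals exp(−(0.5 + 4 × |distance| / 3000)) and ranks closeness only; peak height is absent, and the labels state neither the threshold nor any use of the input. PCR and gel selection of short fragments are in the labels' protocols.

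Starts were taken as peak middle minus distance; of 3744 transcripts with several peaks, 3742 gave 1 start within 2 bases. Positive distances point to higher hg19 positions on either strand. Of 12532 transcripts, 12331 were matched to RefSeq genes (GRCh38.p14, names and order only) by accession, 129 by symbol and 55 by a former symbol; for the other 17 the symbol in the file was used. No row was named IL8; CXCL8 was listed under that symbol. Coordinates are as in the file, and their base (0 or 1) is not given. The 10 genes, the lists of ligands and receptors and the motifs were chosen with earlier results of these data known. Named genes were the 10, every listed ligand or receptor, and the nearest listed neighbours; 1 gene that this rule names is not reported here. A few unlisted neighbours, receptors and PPBPP2 were added after values were seen. Promoters were aligned globally (Biopython 1.88). Matching and motif search were tested on simulated data. No samples were compared. Alternatives were nearest start only, a window of 1000 bases, peaks above the median width, and deposited symbols alone.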

Additional observations from a re-analysis of the deposited data

How the results depend on the processing

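The 6 listed genes stayed at 6 of 10 when a peak counted for the nearest start alone and when the deposited symbol alone was used. With peak middles within 1000 bases, 4 remained, without CXCL1 and CCL2. With peaks wider than the median, 2 remained, CXCL8 and CXCL1, since the CCL3 peak equals the median and those of CCL2, CCL4 and CCL5 are narrower. The other chemokine ligands came to 2 of 38 within 1000 bases (CXCL11 and CCL20) and to 2 of 38 with wider peaks (CXCL11 and XCL2), and receptors to 3 of 23 under each of these settings. All protein-coding genes were listed at 23.4% with nearest starts, 20.9% within 1000 bases, 15.4% with wider peaks and 24.6% by deposited symbol. With wider peaks, the 10 genes (20.0%) therefore stood close to the background. No paired analysis was possible because 1 library has a file and no result comes from a test. Read depth and peak strength are unknown, so weak and strong peaks could not be told apart, and absence from the list does not show absence of binding.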
